A study of Mus musculus with 42 samples.

Results

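The genes described here encode the proteins of the cytosolic ribosome, 84 of the 13344 genes tested in mouse kidney and of 56691 genes in the tables. They were selected on their name and their mean level over the 14 deposited columns, as protein-coding genes whose symbol is Rpl or Rps followed by a digit, Rplp0, Rplp1, Rplp2 or Rpsa, leaving out the kinases named Rps6k, with a mean of at least 1 FPKM. FPKM counts sequenced fragments per length of RNA and per size of the library. Symbol and annotation alone gave 86 genes, and 84 passed the floor. The nearest below it were Rpl39l at 0.016 FPKM and Rpl10l, which was listed at 0. The nearest above it were Rpl3l at 1.54, Rps13 at 1.70 and Rps27 at 2.08 FPKM. Another 7 genes with a matching symbol were annotated as pseudogenes and were left out. Of the 84, 33 were assigned to the small (40S) subunit and 50 to the large (60S) subunit, by symbol only. The remaining gene, Rps19bp1, encodes a protein that binds a ribosomal protein. It is here by its symbol and was assigned to neither subunit.

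The kidneys came from male wild-type C57BL/6 mice that were 6 weeks old when the diets began and were kept in 12 h of light and 12 h of dark. The diets were a standard chow or a high-fat food with 3% EpSA (epoxystearic acid, which forms when unsaturated oil is heated), eaten for 14 weeks. Zeitgeber time (ZT) counts hours from lights on, and tissue was taken at 1, 5, 9, 13, 17, 21 and 25, with 3 mice for each diet and time (42 libraries). What was deposited are 14 means, 1 for each diet and time, called pools below. Fat and EpSA cannot be told apart, because the group on high-fat food alone was not analysed here.

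Ribosomal proteins assemble with ribosomal RNA into the particles that translate messenger RNA. Their genes are among the most highly transcribed of any cell, and the proteins are needed in equal amounts, so their mRNAs often move together. The mRNAs are short and most start with a cytosine and a run of pyrimidines (the TOP element), through which the kinase complex mTORC1 controls their translation. The family has left many processed pseudogenes in mammalian genomes, copies of the mRNA that have been written back into a chromosome, and reads from a gene and its copy can be hard to tell apart.

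Between 27796 and 29783 genes were above 0 in a pool, and a pool's FPKM added up to 400590 to 435621. All 12 kidney markers were measured, among them Umod of the thick ascending limb at 730 FPKM, Slc34a1 of the proximal tubule at 890 and Aqp2 of principal cells at 124. The chow pool of ZT 21 stood apart from the other chow pools. Kap, an abundant proximal tubule transcript, was at 62960 FPKM there and at 33834 to 47820 in the other chow pools. The nuclear genes of the respiratory chain summed to 10280 FPKM there, against a chow median of 7495. Many results that lean on that pool are therefore given with and without ZT 21, and the others include it. Markers of the adrenal gland summed to 123 FPKM in the EpSA pool of ZT 9 and to at most 3.51 in any chow pool, with 4 of 6 markers tested and none at 0 in all pools. The 13 mitochondrially encoded genes summed to 90470 to 110700 FPKM in chow and 105900 to 129300 in EpSA. In bulk tissue fewer cells of a type and less RNA per cell cannot be told apart.

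The 3 genes of the S27 family show what the level of a ribosomal protein gene in these tables can and cannot say, and their coding sequences are printed for that reason. Rps27 (chr3:90212522-90213651, minus strand, GRCm38) is the parent gene, with introns. Rps27rt (chr9:114982366-114982739, minus strand) is a retrogene, a copy made from the mRNA that still encodes the protein. Rps27l (chr9:66946086-66949516, plus strand) is the diverged paralogue, known as a target of p53. The 252 coding bases before the stop codon, taken from the GENCODE transcripts, differed at 0 positions between Rps27 and Rps27rt and at 60 between Rps27 and Rps27l, an identity of 76.19%. Capitals mark the bases of Rps27l that differ from Rps27, and the sequence of Rps27rt is the same as that of Rps27.
Rps27: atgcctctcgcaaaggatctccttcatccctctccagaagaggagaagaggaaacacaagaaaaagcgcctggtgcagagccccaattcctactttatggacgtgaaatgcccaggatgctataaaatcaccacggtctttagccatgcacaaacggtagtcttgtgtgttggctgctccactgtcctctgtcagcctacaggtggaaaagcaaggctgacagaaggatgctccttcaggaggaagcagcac
Rps27l: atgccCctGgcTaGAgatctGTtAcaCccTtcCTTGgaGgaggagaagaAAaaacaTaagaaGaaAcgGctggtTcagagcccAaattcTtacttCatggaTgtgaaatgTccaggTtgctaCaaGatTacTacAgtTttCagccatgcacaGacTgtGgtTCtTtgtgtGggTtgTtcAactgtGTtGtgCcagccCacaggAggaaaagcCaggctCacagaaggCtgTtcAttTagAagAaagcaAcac
Of all 100-base windows of the Rps27 mRNA, 98.37% also lay in another annotated transcript, those of Rps27rt or Gm17241. For Rps27rt the share was 89.45%, and for Rps27l it was 0. The mean level over the 14 pools was 2.08 FPKM for Rps27, 62.8 for Rps27rt and 167 for Rps27l. The parent gene thus stood near the floor beside a copy with the same coding sequence, at a ratio of Rps27rt to Rps27 of 23.1 to 33.8 over the chow pools and 24.9 to 39.1 over the EpSA pools. How the authors assigned reads that fit several genes is not given in the sources used here, and the part of it in these levels was not tested.

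Sharing of sequence was common among the 84 genes. Only 8 shared no 100-base window with another annotated gene, among them Rpl22, Rpl3l, Rps21 and Rps27l. In 34 genes at least 50% of the windows were shared. The median level was 117 FPKM in the 25 genes with under 25% of windows shared and 8.48 FPKM in the 15 with 75% or more. In between it was 29.7 FPKM in the 25 genes with 25 to under 50% and 36.7 in the 19 with 50 to under 75%. Across the 84 genes, which are not independent replicates, Spearman's rho of level and shared windows was -0.455. Of 60 genes with a pseudogene named after them in the tables, 17 had such a pseudogene at a higher FPKM than their own. The widest gap was between Rpl36a, a 60S protein, at 4.77 FPKM and Rpl36a-ps2 at 83.2, a ratio of 17.4. The next, chosen after their values were seen, were Rpl17 at 7.80 FPKM beside Rpl17-ps10 at 131 and Rpl28 at 3.98 beside Rpl28-ps1 at 50.7. Levels of single genes in this family are uncertain where windows are shared, and a gene with a low level here may be one whose reads were assigned elsewhere, which was not tested.

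**Figure D1:**
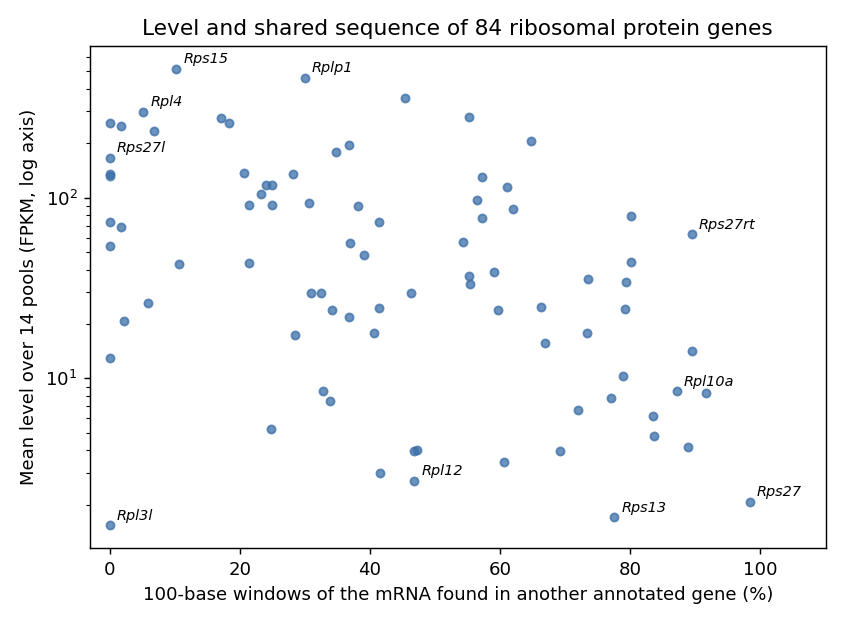
Mean level over 14 pools (FPKM, log axis) against the share of 100-base mRNA windows that also occur in another annotated gene (%), 1 point for each of the 84 genes. Genes above 200 FPKM lie mostly at the left, and Rps27 lies at the lower right with 98.37% of windows shared and 2.08 FPKM.

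Levels spanned from 1.54 FPKM in Rpl3l, the paralogue of Rpl3 known from heart and skeletal muscle, to 517 in Rps15, a 40S protein. The median was 40.8 FPKM, with 23 genes at 100 or more and 11 under 5. After Rps15 came Rplp1 of the ribosomal stalk at 460 FPKM, Rps3a1 at 355, Rpl4 at 299 and Rpl36 at 278. The lowest after Rpl3l, Rps13 and Rps27 were Rpl12 at 2.72 and Rps23 at 3.00 FPKM. The 84 genes summed to between 6559 and 9079 FPKM in the chow pools and between 6181 and 7207 in the EpSA pools. That was 1.80% ± 0.151 (SD, n = 7 pools) of all FPKM in chow and 1.61% ± 0.092 (SD, n = 7 pools) in EpSA, a ratio of 0.893. The ratio was 0.927 without ZT 21 and 0.953 when mitochondrially encoded genes were left out of the total.

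Expression was compared between the diets to ask whether EpSA in a high-fat diet goes with another level of ribosomal protein mRNA. Most of the genes were slightly lower in EpSA, but none passed the test. In the limma model with time as a factor, 0 of 84 passed an adjusted p of 0.05, against a background of 0.247% of all genes tested. At an unadjusted p of 0.05, 22 were lower in EpSA (26.2%, against 10.6% of all genes) and 0 were higher (8.56% of all genes). Without trend and robust moderation in limma the counts were also 22 and 0. The estimate was below 0 for 75 of 84, against 53.9% of all genes, with a median of -0.11 on the log2(FPKM + 1) scale against -0.01. Other short mRNAs shared part of this. Of 337 other protein-coding genes with mRNAs of up to 700 bases, 250 were below 0, with a median of -0.08. At an unadjusted p of 0.05 by limma, 68 of those 337 were lower in EpSA and 12 were higher. The median was -0.11 in the 33 small-subunit genes, of which 29 were below 0, and -0.12 in the 50 large-subunit genes, of which 45 were. The count of 22 fell to 14 without ZT 21, to 9 without ZT 5, to 8 without ZT 25 and to 1 without ZT 13. The share of all genes with those times left out was not counted. Without ZT 21 the median was -0.06 and 68 of 84 were below 0. Each mean of 3 mice entered as 1 sample, so p-values measure what is left over between times, not the spread between mice.

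The acidic stalk proteins gave the lowest estimates. Rplp1 and Rplp2 sit on Rplp0 at the tip of the large subunit, where they recruit elongation factors. Rplp2 was at 42.1 to 87.3 FPKM in chow (median 49.9) and at 33.2 to 47.4 in EpSA (median 40.2). The groups overlapped, and EpSA was the lower diet at 7 of 7 times. Its log2 difference was -0.38 ± 0.145 (SE), with an adjusted p of 0.209 by limma, and -0.22 ± 0.061 without ZT 21, with an adjusted p of 0.171. Rplp1 was at 399 to 768 FPKM in chow (median 484) and 348 to 461 in EpSA (median 386), lower at 6 of 7 times. Its log2 difference was -0.33 ± 0.125 (SE), and -0.20 ± 0.065 without ZT 21. The anchor Rplp0 moved over a narrower range, 247 to 291 FPKM in chow (median 271) and 230 to 264 in EpSA (median 251). All 3 stalk genes were lower in EpSA at most times, but the ratio of Rplp0 to Rplp2 was 3.17 in chow at ZT 21 and 5.36 at the median chow pool. In EpSA that ratio ran from 5.51 to 7.23, which overlaps the chow pools, whose highest was 5.89.

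The next lowest estimates belonged to a mix of small and large subunit genes. Rps21, a small 40S protein, was at 123 to 246 FPKM in chow (median 136) and 102 to 138 in EpSA (median 121). The highest value was the chow pool of ZT 21, and the other 6 chow pools lay at or below 145 FPKM. Rpl37a, a zinc-binding 60S protein, was at 78.2 to 171 FPKM in chow (median 92.9) and 68.8 to 91.5 in EpSA (median 81.9). Rpl21, also of the 60S subunit, was at 20.7 to 33.9 FPKM in chow (median 22.7) and 16.1 to 24.5 in EpSA. Rps9, which binds early in assembly of the 40S subunit, was at 86.9 to 134 FPKM in chow (median 96.1) and 72.2 to 94.3 in EpSA (median 80.7). In each of these genes the diets overlapped and chow at ZT 21 was the highest of the 14 pools. The log2 differences were -0.29 ± 0.141 (SE) for Rps21, -0.27 ± 0.153 for Rpl37a, -0.27 ± 0.107 for Rpl21 and -0.27 ± 0.096 for Rps9. Without ZT 21 they were closer to 0, at -0.12 ± 0.056 for Rps21, -0.10 ± 0.067 for Rpl37a, -0.18 ± 0.087 for Rpl21 and -0.16 ± 0.051 for Rps9. Rps15 was at 467 to 682 FPKM in chow (median 541) and 437 to 535 in EpSA (median 473), a log2 difference of -0.22 ± 0.08 (SE) and of -0.15 ± 0.057 without ZT 21. None of the 84 genes had all 7 EpSA pools below all 7 chow pools (0.465% of all genes did), and 4 were lower at 7 of 7 times (4.76%, against 4.13% of all genes).

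Other genes of the family hardly differed or stood higher in EpSA. Rpl4, which lines the exit tunnel of the large subunit, had the narrowest range of all 84, at 287 to 310 FPKM in chow (median 302) and 282 to 314 in EpSA (median 295). Its log2 difference was -0.02 ± 0.046 (SE). Rpl23a, Rpl9, Rpl23 and Rpl7 followed, with ranges of 0.21 to 0.23 on the log2 scale over the 14 pools. The widest were Rplp2 at 1.37, Rpl37a at 1.31, Rps21 at 1.25, Rps28 at 1.16 and Rplp1 at 1.14, against a median of 0.53, and each of these 5 had its highest pool in chow at ZT 21. The highest estimates were those of Rpl10a (0.10 ± 0.067, SE), Rps13 (0.10 ± 0.057), Rpl10 (0.08 ± 0.072), Rpl5 (0.07 ± 0.04), Rps27l (0.04 ± 0.058) and Rpl7a (0.03 ± 0.048). Rpl5 binds the 5S ribosomal RNA together with Rpl11. It was at 3.60 to 4.41 FPKM in chow (median 3.83) and 3.92 to 4.33 in EpSA (median 4.15), higher in EpSA at all times but ZT 9. Rpl10, a late-joining 60S protein, was at 6.35 to 9.75 FPKM in chow (median 8.17) and 7.42 to 9.62 in EpSA (median 8.34). None of these 6 had an unadjusted p under 0.05 in limma. Without ZT 21 the estimates were 0.05 for Rpl10a, 0.06 for Rps13, 0.01 for Rpl10, 0.06 for Rpl5, 0.07 for Rps27l and 0.03 for Rpl7a. Of the 6, Rpl10a, Rps13, Rpl10 and Rpl7a shared 73.5% to 91.57% of their windows with other genes, Rpl5 shared 47.23% and Rps27l none. The genes with the 6 lowest estimates, Rplp2, Rplp1, Rps21, Rpl21, Rpl37a and Rps9, shared from none (Rps21) to 39.13% (Rplp2).

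**Figure D2:**
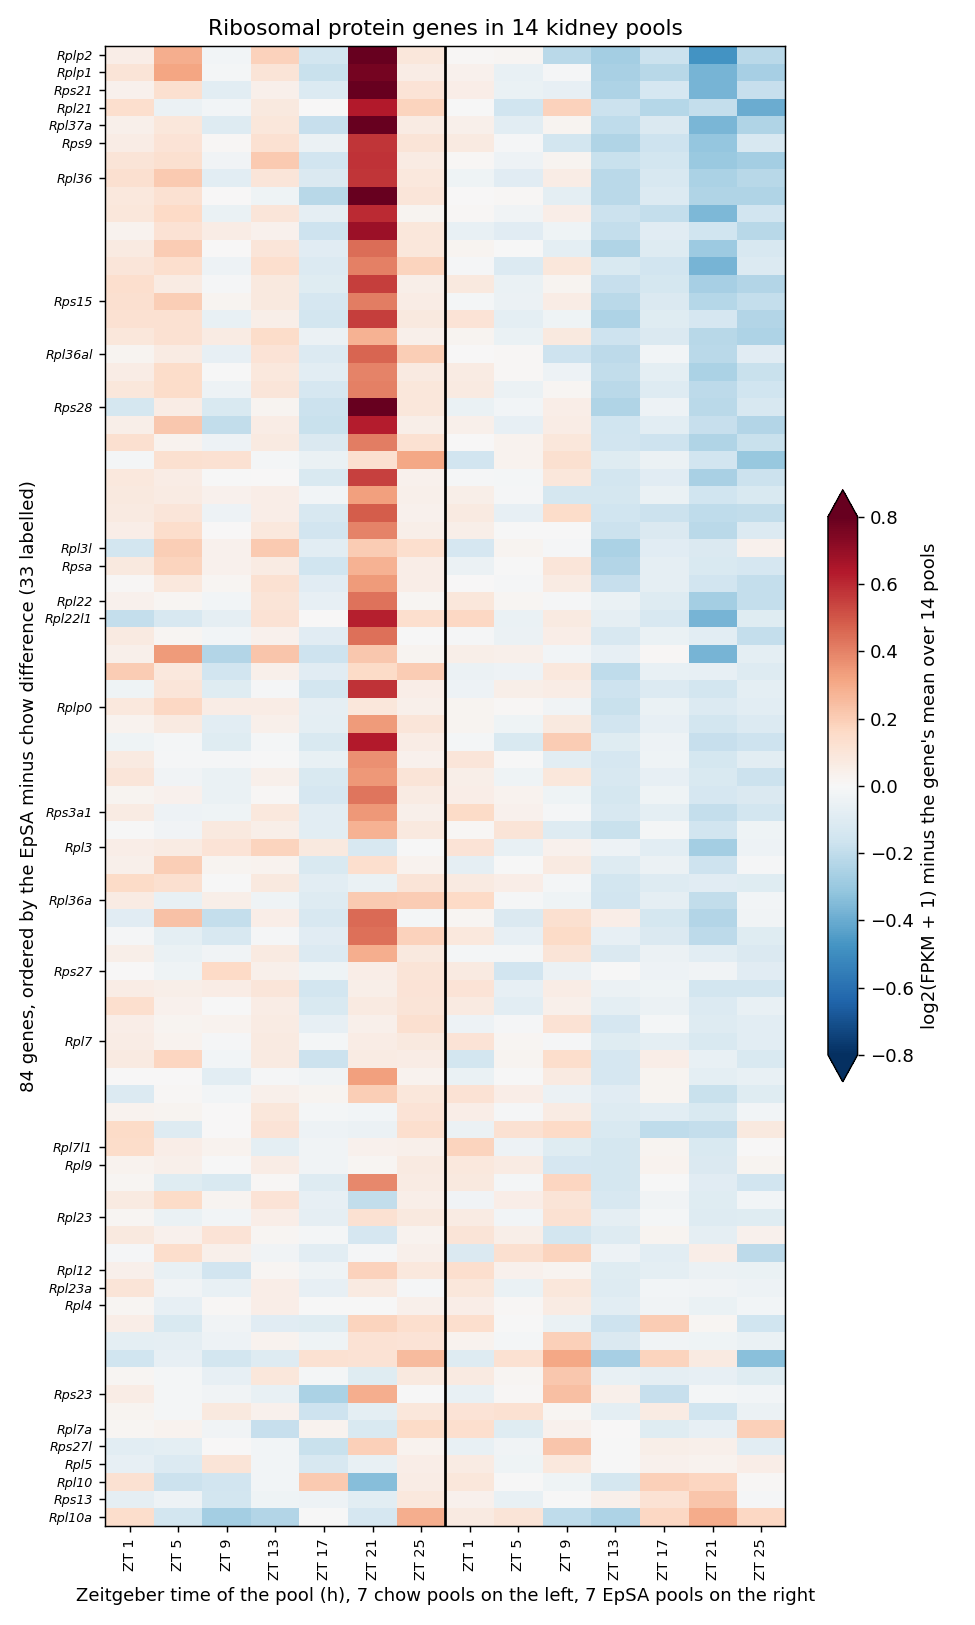
Each gene's log2(FPKM + 1) minus its own mean over the 14 pools (colour, cut at 0.8), with 84 genes in rows ordered by diet difference, of which 33 are labelled, and the pools in columns. The chow column of ZT 21 is the highest pool for 49 genes, and the EpSA columns of ZT 13, 21 and 25 hold the lowest pool for 68 (28.1% of all genes).

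The difference was not even over the day. With 1 value for each diet and time there is no test at a single time. The median difference of the 84 genes was lowest at ZT 21 (-0.45), followed by ZT 25 (-0.20), ZT 13 (-0.19) and ZT 5 (-0.08). It was close to 0 at ZT 1 (-0.004), ZT 17 (0.03) and ZT 9 (0.06). The median of all genes tested stayed between -0.05 and 0.07. At ZT 21, 37 of 84 were lower in EpSA by at least 0.5 on the log2 scale (44.0%, against 6.41% of all genes). Only Rpl10 was higher by that much (0.51; 6.48% of all genes). At ZT 25 there were 3 such lower genes (1.4% of all genes) and 0 higher (2.0%). At the other 5 times no gene of the family differed by that much in either direction (12.7% of all genes did so at 1 or more of them). At ZT 13, 21 and 25 most genes were below 0: 78 of 84 were below 0 at ZT 13 (62.0% of all genes), 75 at ZT 21 (40.3%) and 81 at ZT 25 (47.5%). Earlier in the day 44 were below 0 at ZT 1 (56.6%), and 58 were at ZT 5 (59.3%). Few were below 0 at ZT 9, with 26 of 84 (56.3%), or at ZT 17, with 30 (42.2%).

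Most of the size at ZT 21 lay in the chow pool. The highest of the 14 pools was chow ZT 21 for 49 of 84 genes (58.3%, against 13.5% of all genes). Over the 84 genes, chow ZT 21 minus the mean of the other 6 chow pools had a median of 0.29, with 68 above 0. Over all genes the median was -0.06, with 4946 of 13344 above 0. The same contrast in EpSA had a median of -0.10, with 8 of 84 above 0. Over all genes its median was 0.02, with 7370 of 13344 above 0. Rps28, a small 40S protein, is an example: that chow pool had 29.8 FPKM and the other 6 had 13.5 to 16.4. Its 7 EpSA pools lay between 12.8 and 15.9 FPKM, so at the other times the diets were side by side. EpSA ZT 21 was the lowest pool for 34 genes (40.5%, against 11.2% of all genes), EpSA ZT 13 for 20 (12.1%) and EpSA ZT 25 for 14 (4.7%). ZT 25 and ZT 1 are the same hour of the day on successive days. Between them the median change of the 84 genes was 0.03 in chow, with 51 above 0, and -0.16 in EpSA, with 8 above 0. All genes had medians of -0.04 in chow, with 5224 of 13344 above 0, and -0.01 in EpSA, with 6524 above 0.

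**Figure D3:**
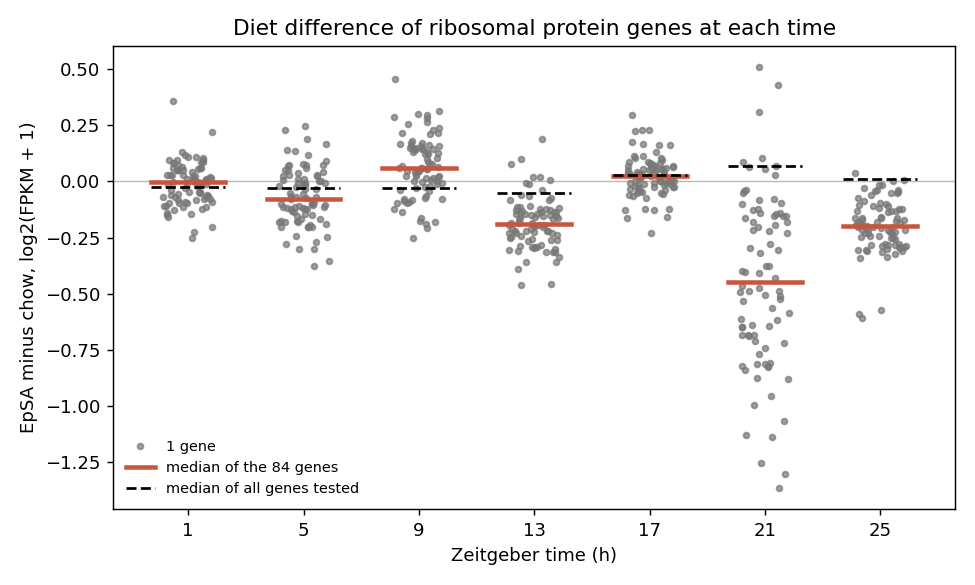
EpSA minus chow difference of log2(FPKM + 1) at each zeitgeber time (h), with 1 grey point for each of the 84 genes, their median in red and the median of all 13344 genes as a dashed line. The genes spread from -1.37 to 0.51 at ZT 21, while at ZT 17 the medians are 0.03 for both sets.

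**Figure D4:**
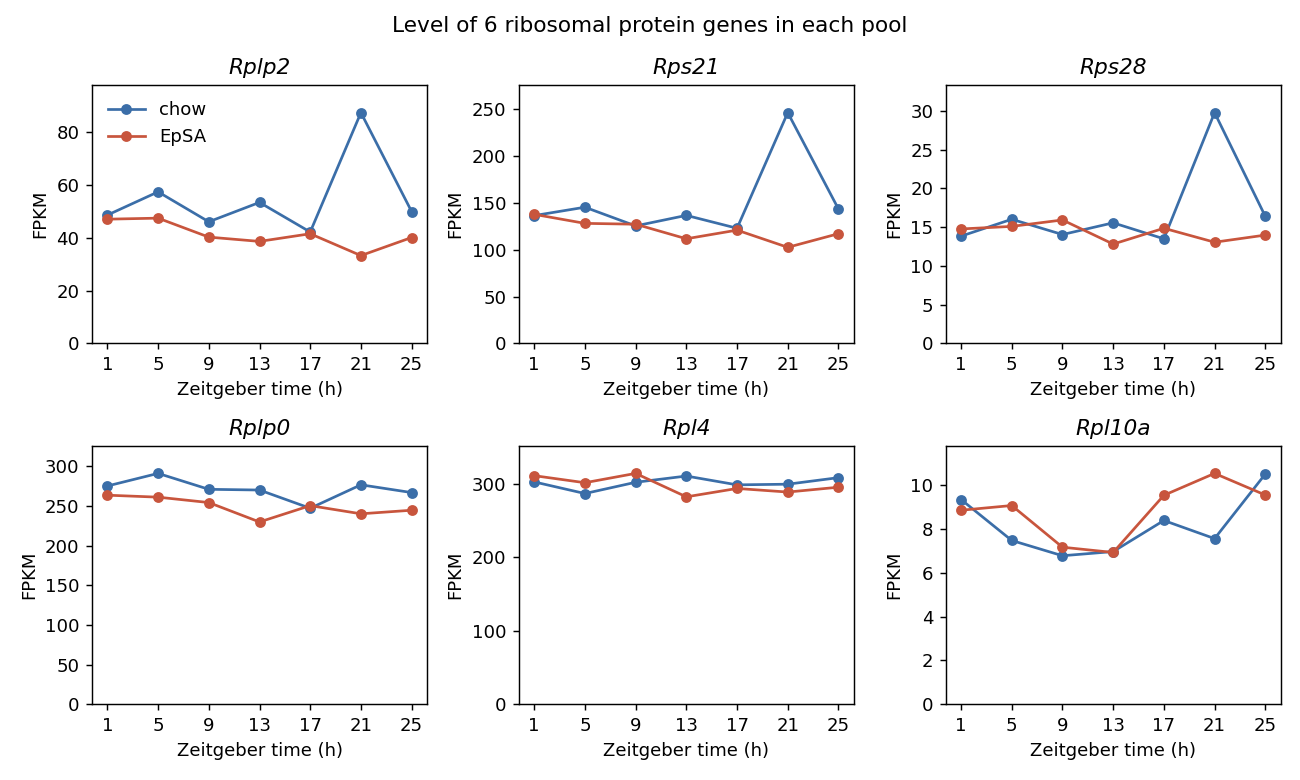
FPKM of Rplp2, Rps21, Rps28, Rplp0, Rpl4 and Rpl10a in each pool against zeitgeber time (h), chow in blue and EpSA in red, with no error bars because each point is 1 deposited mean. Rplp2, Rps21 and Rps28 have their highest point in chow at ZT 21, at 87.3, 246 and 29.8 FPKM, while Rpl4 stays between 282 and 314.

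At ZT 21 the difference varied with the length of the mRNA and, in the family, with the windows shared with other genes. Lengths were those of the principal protein-coding transcript. The 20 genes with mRNAs of up to 500 bases had a median difference of -0.67 at ZT 21, the 22 of over 500 to 700 bases -0.48, the 23 of over 700 to 1000 bases -0.38 and the 19 of over 1000 to 5000 bases -0.23. Other protein-coding genes in the same length classes had medians of -0.36, -0.31, -0.27 and 0.06, and those over 5000 bases 0.20. The medians of other short mRNAs were thus below 0 as well. Those of the ribosomal protein genes were lower in each of the 4 classes, a difference that was not tested. In the class of over 1000 to 5000 bases lengths were not matched. Of the 19 ribosomal protein genes there, all but Rpl5 (2045 bases) and Rps20 (3706) had mRNAs of at most 1908 bases. Within the family, Spearman's rho of the ZT 21 difference over the 84 genes was 0.219 with mRNA length and 0.367 with the share of shared windows. The ZT 21 median was -0.52 in the genes with under 25% of windows shared, -0.54 from 25 to under 50%, -0.18 from 50 to under 75% and -0.13 at 75% or more. At ZT 17 the medians of the length classes lay between 0.01 and 0.05. The medians also varied with length at other times. At ZT 25 other protein-coding genes had medians of -0.179, -0.155, -0.142 and 0.006 in the 4 classes, and 0.084 over 5000 bases. At ZT 9 the shorter classes were the higher ones, with 0.133, 0.059, 0.062 and -0.038, and -0.094 over 5000 bases. RNA quality and library size selection were not measured in the tables, and their part in the length pattern was not tested, nor was that of read assignment among copies.

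**Figure D5:**
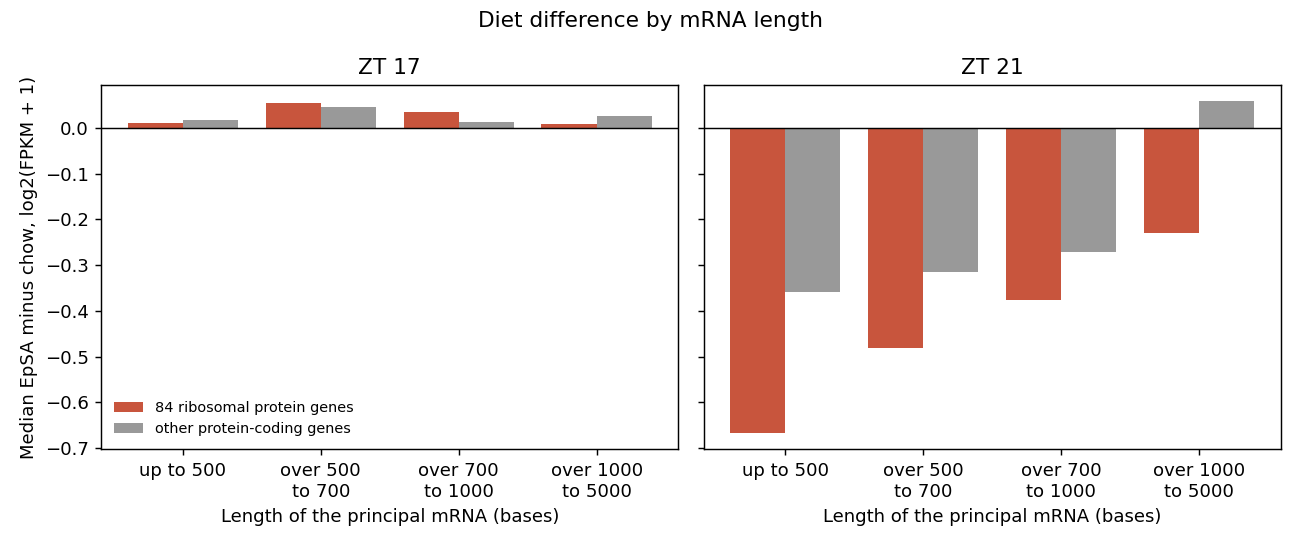
Median EpSA minus chow difference of log2(FPKM + 1) by length of the principal mRNA (bases) at ZT 17 and ZT 21, ribosomal protein genes in red and other protein-coding genes in grey. At ZT 21 the red bars run from -0.67 for the shortest class to -0.23 for the longest.

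Pairs of related genes kept their order in every pool. Rpl22, whose protein binds RNA and represses its paralogue, exceeded Rpl22l1 by 2.64 to 3.60 times in chow and 2.85 to 3.31 times in EpSA. Rpl22l1 itself was at 15.3 to 27.6 FPKM in chow and 13.4 to 19.9 in EpSA. Rpl7 exceeded Rpl7l1 by 6.08 to 7.20 times in chow and 6.04 to 6.91 in EpSA. Rpl36al exceeded its X-linked relative Rpl36a by 7.45 to 9.50 times in chow and 7.12 to 8.48 in EpSA, with 83.59% of the windows of Rpl36a shared with other genes. Rpl3 exceeded Rpl3l by 16.4 to 27.7 times in chow and 21.0 to 29.8 in EpSA. In all 4 pairs the ranges of the diets overlapped. Rpsa, which also serves as a laminin receptor, was at 79.7 to 108 FPKM in chow and 75.4 to 95.2 in EpSA, a log2 difference of -0.15 ± 0.064 (SE) and of -0.11 ± 0.058 without ZT 21.

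Genes that work beside the family were listed separately. Fau and Rack1 encode proteins of the ribosome under other symbols, and both estimates were below 0. Neither passed by limma, with an adjusted p of 0.0997 for Fau and 0.233 for Rack1. Of 21 translation factors and other TOP mRNAs 15 were below 0 (median -0.05), and none passed by limma, with 2 higher and 1 lower at an unadjusted p of 0.05. Of 31 ribosome biogenesis genes 14 were below 0 (median 0.01), with 2 higher and 1 lower at an unadjusted p of 0.05 by limma. Of the 18 genes of mTORC1 and TOP control 9 were below 0 (median -0.01), with 1 higher and 4 lower at that threshold. None of these lists had a gene past the adjusted threshold. Ribosomal proteins of the mitochondrion were below 0 for 60 of 77 (median -0.07) and had a median of -0.27 at ZT 21. The 38 nuclear genes of the respiratory chain were below 0 for 34 (median -0.14), with a median of -0.65 at ZT 21, lower than that of the ribosomal protein genes. At the other times their medians ran from -0.205 at ZT 25 to 0.133 at ZT 9. The 71 tested pseudogenes named after a ribosomal protein were below 0 for 59 (median -0.07). A list of nuclear-retained and splicing-linked RNAs was drawn up with their higher level in EpSA known, so its direction (median 0.27 over 12 tested genes) is no independent evidence. Of these, 4 passed the adjusted test (Ccnl2, Firre, Pnisr and Rnpc3). The list summed to 720 to 910 FPKM in chow and to 940 to 1113 in EpSA, with no gene at 0 in all pools. Immune markers (12 of 15 tested) summed to 195 to 958 FPKM in chow and 198 to 256 in EpSA. Red blood cell markers (6 of 7 tested) summed to 382 to 709 and 312 to 436, and neither list had a gene at 0 in all pools. The part of these in the values of the ribosomal protein genes was not tested.

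Rhythm was examined with a 24 h cosine to ask whether ribosomal protein mRNAs cycle over the day in the kidney. None of the 84 passed by limma over all genes in chow (0.0974% of all genes), in EpSA (0.045%), in the fit shared by the diets (1.42%) or in the test of a difference of rhythm (0.0%). At an unadjusted p of 0.05 there were 0 in chow (10.2% of all genes), 2 in EpSA (8.63%), 3 in the shared fit (16.1%) and 1 for the difference (4.38%). These counts moved with single times: without ZT 17 there were 12 in chow and 28 for the difference, without ZT 21 there were 3 in chow and 8 in the shared fit, and without ZT 1 or ZT 13 there were 5 in EpSA. The shares of all genes with those times left out were not counted, so these counts have no background to be read against. In the authors' deposited table the meta2d p-value was under 0.05 for 3 of 84 in chow (11.8% of all genes) and 2 in EpSA (9.82%), and no gene was in both (1.84%). Rpl7l1 was 1 of the 3 in chow, with a meta2d p-value of 0.0053 and a q-value of 0.43. In the authors' deposited table none of the 84 had a q-value under 0.05 in chow (0.0% of all genes) or EpSA (0.015%).

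In the limma fit shared by the diets, the gene nearest to a rhythm was Rpl10a, whose protein forms the mobile L1 stalk of the large subunit. Its lowest chow pools were ZT 9 (6.78 FPKM) and ZT 13 (6.97), and its highest ZT 25 (10.5) and ZT 1 (9.35). Its lowest EpSA pools were ZT 13 (6.93 FPKM) and ZT 9 (7.17), and its highest was ZT 21 (10.5). ZT 9 and ZT 13 were thus the lowest pools in both diets, while ZT 21 was high in EpSA and not in chow (7.56 FPKM). The shared cosine had an amplitude of 0.215 on the log2 scale and a peak at 22.7 h, with an adjusted p of 0.0692 by limma. Without ZT 21 the amplitude was 0.253 and the adjusted p was 0.038 by limma, against 1% of all genes called. Rpl10a shared 87.14% of its windows with Rpl10a-ps1 and Gm13573, and Rpl10a-ps1 was at 18.7 FPKM. Over the 14 pools, which share normalization and the ZT 21 chow pool, Pearson's r with the mean of the family was 0.761 for Rpl10a-ps1 and -0.244 for Rpl10a. Without ZT 21 it was 0.351 and 0.061.

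As a group the genes followed each other from pool to pool. Pearson's r of a gene with the mean of the other 83 over the 14 pools had a median of 0.835, and 35 genes were above 0.9 and 64 above 0.5. Without ZT 21 the median was 0.762, with 66 genes above 0.5. The pools share normalization to a total and the ZT 21 chow pool, so these values are descriptions. The lowest r belonged to Rpl10 (-0.564), Rps13 (-0.438), Rpl10a, Rpl5 (-0.204) and Rpl7a (-0.196), which are also among the genes with the highest diet estimates. Without ZT 21 these r lay between -0.073 and 0.061, so the negative values rest on that time. Outside the family, the genes most like its mean were Eif3k, a subunit of an initiation factor, at 0.973, Rps16-ps2 and Mrps24, of the mitochondrial ribosome, at 0.971, Rpl38-ps2 at 0.969 and Gm49172 at 0.967. Without ZT 21 these 5 values were 0.916 to 0.943. Rps16-ps2 and Rpl38-ps2 are pseudogenes of family members, at 45.8 and 141 FPKM.

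Because the genes moved together, their promoters were read for shared sequence. RefSeq windows of 300 bases (GRCm38.p6) were available for 64 of the 84 genes. The pyrimidine word CTTTCC, a piece that a TOP start can hold, was searched on the gene's own strand in the 60 bases centred on the start, and 12 of 64 genes held it (18.75%, against 3.17% of other tested genes and 2.89% of all windows of that length). The word CCGGAAG, bound by factors of the ETS family, was searched on both strands of the whole window and was in 25 of 64 (39.06%, against 20.39% and 8.86%). CACGTG, the E-box of the circadian clock, read the same on both strands, was in 6 of 64 (9.38%, against 11.89% and 7.15%). TATAAA, the core of a TATA box, searched on the gene's strand, was also in 6 (9.38%, against 5.35% and 8.32%). No word contains another. The windows below run from 40 bases before the start to 20 from it on, with CTTTCC and CCGGAAG in capitals. Rpl38 and Rps10 held both words. Rps27 and Rps27rt show the parent and its retrogene. Rplp2 and Rps28, among the widest movers, held neither word here, nor did Rps13, which moved apart from the rest.
Rpl38, chr11:114668540-114668599, + strand: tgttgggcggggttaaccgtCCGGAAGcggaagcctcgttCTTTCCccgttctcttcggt
Rps10, chr17:27635225-27635284, - strand: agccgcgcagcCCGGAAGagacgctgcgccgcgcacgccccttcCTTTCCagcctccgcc
Rps27, chr3:90213629-90213688, - strand: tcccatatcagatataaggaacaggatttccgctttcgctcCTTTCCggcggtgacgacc
Rps27rt, chr9:114982720-114982779, - strand: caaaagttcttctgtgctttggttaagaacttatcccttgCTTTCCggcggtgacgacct
Rplp2, chr7:141447611-141447670, + strand: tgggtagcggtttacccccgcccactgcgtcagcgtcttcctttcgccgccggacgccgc
Rps28, chr17:33824543-33824602, - strand: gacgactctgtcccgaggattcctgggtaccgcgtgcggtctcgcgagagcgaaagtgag
Rps13, chr7:116334171-116334230, - strand: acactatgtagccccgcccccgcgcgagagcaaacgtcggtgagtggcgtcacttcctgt
The longest run that the windows of Rps27 and Rps27rt have in common was 19 bases. It begins with the word CTTTCC at or beside the annotated start of each and reads on into the transcript. The printed window of Rps27 ends with this run, so its full length was not measured. The coding sequences of Rps27 and Rps27rt, printed above for Rps27, are the same throughout. A match of letters is a description and not a site of binding.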

How the data were processed

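Per the labels' protocols, total RNA from 42 kidneys gave paired reads of 150 bases. Aligner, counting, build and annotation: not given in the sources used here. In the 2 tables the authors deposited are 14 columns of expression, read as FPKM although no header names the unit, since values are not whole and column sums differ. Their last decimals are those of means of 3 values, and each column is taken as a mean over 3 mice. Depth is unknown and no counting error can be given. Per the file headers, the deposited tables also hold meta2d p-values and q-values of rhythm, phases in hours, and a ratio of amplitude to baseline. The treated table was matched to EpSA through the sample descriptions.

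The design had allowed for values of single libraries; the tables hold means, so the models were fitted to 14 means, each as 1 sample. The test used log2(FPKM + 1), a pseudocount of 1, for the 13344 genes at or above a mean of 1 FPKM, by limma 3.58.1 in R 4.3.3 with a mean-variance trend and robust moderation. That scale shrinks the folds of low genes. P-values were adjusted by Benjamini-Hochberg over all 13344 genes at 0.05. Of the identifiers, 52073 had a symbol and 4618 had none. Windows of 100 bases and gene positions came from GENCODE transcripts of GRCm38, read on the transcript's strand. The fits were also run on simulated data in which genes varied independently. Genes of the family move together, so that run does not bear on the results for them. Members and lists were chosen with earlier results of these data known. Genes named were the 5 highest and 5 lowest levels, the 6 highest and 6 lowest diet differences, the 5 widest and 5 narrowest ranges, stalk genes, Rpsa and paralogue pairs, with the listed genes past the test, Fau, Rack1 and the 5 genes most like the mean; some genes that the rule selects are not reported here, and others were named after their values were seen. Alternatives covered pseudocount, filter, scaling, time term, moderation and single times left out. Python 3.11.15, numpy 2.4.6, pandas 2.3.3 and matplotlib 3.10.9 served for the rest.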

Additional observations from a re-analysis of the deposited data

Results flagged for a closer look

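The 33 genes named by rule and the summed level and share of the family were looked at again where, within a diet, the highest or lowest pool stood farther from the next than Dixon's 95% critical value allows for 7 samples. Of 70 sets of 7 pools 12 passed. Chance passes about 1 in 20 independent sets, but these genes move together and were partly picked for wide ranges, so that rate is no yardstick for the count. In 11 of the 12 the pool was chow at ZT 21. The summed level of the 84 genes was 9079 FPKM there, and the next chow pool was 7481. The other 10 were single genes: Rps28 at 29.8 FPKM, with the next chow pool at 16.4; Rpl37a at 171, next 94.9; Rps21 at 246, next 145; Rps9 at 134, next 97.5; and Rpl21 at 33.9, next 24.4. Rpl22 was at 73.0 FPKM, with 57.8 next. Rpl22l1 was at 27.6 FPKM, with 19.4 next, and Rplp2 at 87.3, with 57.3 next. Rps3a1 was at 449 FPKM, with 374 next, and Rpl36 at 408, with 318 next. The twelfth was Rps27l, which was at 194 FPKM in EpSA at ZT 9, with 172 next, the pool in which adrenal markers were high. No value for single mice was used here, so whether 1 mouse carries the chow pool of ZT 21 cannot be told.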

How the results depend on the processing

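No paired analysis was possible because the columns are means over 3 mice and carry no replicate numbers, so the replicate block was not run. Of 143 alternative values of the main results, 135 kept their direction and stayed within the limits set for them. That count is no measure of stability. Most of the values are counts that were 0 as reported. The limit for the median difference was its SD over the 7 times (0.177), wider than the median of -0.109 is from 0. The count of genes lower at an unadjusted p moved in 6 settings and stayed within its limit in 9. The count of genes lower in EpSA at an unadjusted p was 22 as reported, 10 with the median of all genes set equal and 8 after quantile normalization, and it ran from 1 to 29 with a time left out. The count higher in EpSA was 0 as reported and 1 after quantile normalization. The count with a shared rhythm was 0 as reported and 0 to 1 with a time left out. The cause was not tested. The median difference of the 84 genes stayed between -0.14 and -0.06. No setting gave a gene of the family an adjusted p under 0.05 for diet, rhythm within a diet or difference of rhythm. At an unadjusted p the rhythm of 28 genes differed between diets without ZT 17, against 1 with it. The shares of all genes at an unadjusted p were not counted in the alternative settings. The median of all genes was -0.01 and turned to 0.0021 with no filter. Over all genes the counts past the adjusted threshold, 23 higher and 10 lower, were 53 and 17 after quantile normalization, 14 and 3 with medians set equal, 1 and 1 with totals set equal, 96 and 60 with no time term, 1 and 2 without trend or robust moderation, and 0 and 0 with no filter. Depth is unknown, and 14 means limit every test.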
